A study of Caenorhabditis elegans with 2 samples.

Results

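The nematode Caenorhabditis elegans carries many copies of the genes for its small nuclear RNAs (snRNAs), and 99 of them are described here as regions of tagged-protein ChIP-seq signal. They are all genes of biotype snRNA in the Ensembl annotation of the WBcel235 genome, 129 genes, less those named sls-1 or sls-2, which encode the spliced-leader (SL) RNAs. The whole annotation held 46926 genes. The ChIP-seq, in which sheared chromatin is precipitated with an antibody and sequenced, targeted the protein Y53F4B.3, annotated as pole-4; POLE4 is known as a histone-fold protein of the replicative DNA polymerase epsilon. The single group was strain RW12270, in which the endogenous gene on chromosome II had been edited by CRISPR to carry TY1, EGFP and 3xFLAG tags; the chromatin was sonicated and precipitated through the EGFP with an anti-GFP antibody. Whole young adults, 64 h old and synchronised as bleached, starved L1 larvae, gave 2 biological replicates. No worms without the tag were analysed here, so no value below is set against an untagged background, and whether the protein itself was bound was not tested.

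Spliceosomal snRNAs are the RNA cores of the machine that removes introns from pre-mRNA. U1 pairs with the 5′ splice site and U2 with the branch point, U4 chaperones U6 until the spliceosome is activated, U5 holds the exon ends, and U6 forms the catalytic centre with U2. The U1, U2, U4 and U5 genes are transcribed by RNA polymerase II and the U6 genes by RNA polymerase III, and in animals both depend on a proximal sequence element upstream of the start, which the SNAP complex binds. The SmY RNAs of nematodes carry the same Sm ring and act with the spliced-leader RNAs in trans-splicing.

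The annotation does not state a U type for these genes, so they were grouped by the sequence of the gene itself. Families of at least 70% identity were given a type where most members held a known short stretch of that snRNA. The U1-type family had 13 genes, of which 12 held ACTTACCTG, which pairs with the 5′ splice site. The U2-type family had 19 genes, of which 18 held the branch-point stretch TGTAGTA, and the U4-type family had 5, all with GCTTTGCGC. The U5-type family had 12 genes, of which 11 held the loop GCCTTTTAC, and the U6-type family had 24, of which 22 held ACAGAGA. The remaining 26 genes did not carry the label spliceosomal by this measure. Of them, 10 are named smy genes for the SmY RNAs, and 16 were left unassigned, including the 22-base mir-1831. The same families formed at identity thresholds between 65% and 80%, while at 60% the U1-type genes merged with the U2-type ones and the U4-type genes with the U5-type ones.

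A listed gene of the U1-type, the U2-type and the U4-type family is shown as the WBcel235 reference genome of RefSeq gives it, 5′ to 3′, because the stretch in capitals is what gave the family its type.
sup-6, U1-type (chrII:12944803-12944967, minus strand): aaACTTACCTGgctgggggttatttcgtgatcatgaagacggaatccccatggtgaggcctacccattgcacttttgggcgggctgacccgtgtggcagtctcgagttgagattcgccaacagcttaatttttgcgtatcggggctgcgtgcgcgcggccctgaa
Y57G11C.35, U2-type (chrIV:14764848-14765034, minus strand): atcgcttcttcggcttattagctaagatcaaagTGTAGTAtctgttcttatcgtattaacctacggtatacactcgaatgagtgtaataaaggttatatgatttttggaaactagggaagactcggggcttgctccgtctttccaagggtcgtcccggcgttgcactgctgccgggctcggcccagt
T11F9.15, U4-type (chrV:11980118-11980261, plus strand): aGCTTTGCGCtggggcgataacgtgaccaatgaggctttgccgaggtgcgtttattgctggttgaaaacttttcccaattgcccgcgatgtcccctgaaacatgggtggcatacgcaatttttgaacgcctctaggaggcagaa

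Most of the listed genes share short sequence stretches just upstream of the gene, so the 80 bases before the annotated 5′ end are shown for 9 genes with a listed peak and for 2 without. Capitals mark 3 motifs that were chosen after the sequences had been seen, GCGNAACCC, ACGCGCNCC and TATATAA.
sup-6, U1-type, listed (chrII:12944968-12945047, minus strand): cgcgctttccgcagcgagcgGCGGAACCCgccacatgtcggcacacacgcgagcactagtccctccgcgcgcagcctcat
sup-39, U1-type, listed (chrII:6968559-6968638, minus strand): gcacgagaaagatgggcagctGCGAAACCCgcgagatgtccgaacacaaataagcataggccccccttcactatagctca
T08G5.11, U1-type, listed (chrV:14028636-14028715, minus strand): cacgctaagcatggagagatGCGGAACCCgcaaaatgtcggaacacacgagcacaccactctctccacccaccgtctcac
Y57G11C.35, U2-type, listed (chrIV:14765035-14765114, minus strand): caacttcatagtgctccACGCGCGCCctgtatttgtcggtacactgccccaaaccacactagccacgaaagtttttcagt
F11A5.14, U2-type, unlisted candidate (chrV:16225888-16225967, minus strand): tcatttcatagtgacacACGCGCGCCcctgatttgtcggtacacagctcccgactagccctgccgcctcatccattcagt
T11F9.15, U4-type, listed (chrV:11980038-11980117, plus strand): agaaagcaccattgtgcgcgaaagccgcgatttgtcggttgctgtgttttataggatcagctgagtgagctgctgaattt
F38E11.11, U5-type, listed (chrIV:9444562-9444641, plus strand): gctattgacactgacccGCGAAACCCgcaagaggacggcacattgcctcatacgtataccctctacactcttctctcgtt
F42C5.12, U5-type, listed (chrIV:7316652-7316731, plus strand): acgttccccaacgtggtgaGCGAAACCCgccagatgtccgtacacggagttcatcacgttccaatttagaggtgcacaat
F54D8.7, U6-type, listed (chrIII:5080899-5080978, minus strand): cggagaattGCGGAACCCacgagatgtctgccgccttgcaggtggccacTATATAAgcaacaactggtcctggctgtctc
R07E5.16 (WBGene00014543), U6-type, listed (chrIII:10989599-10989678, plus strand): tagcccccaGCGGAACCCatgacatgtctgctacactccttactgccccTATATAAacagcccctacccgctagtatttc
R07E5.16 (WBGene00014430), U6-type, no candidate (chrIV:13435887-13435966, minus strand): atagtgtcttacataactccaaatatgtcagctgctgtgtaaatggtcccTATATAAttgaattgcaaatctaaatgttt

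A candidate is a region in the authors' ranked list, a listed peak is a candidate that the authors also deposited in the matching thresholded list, and the signal is the score of their peak caller. The irreproducible discovery rate (IDR) is the authors' estimate of how poorly a peak repeats, where low values repeat well; every listed peak had an IDR of 0.01 or less. Ranked and thresholded lists came as 4 pairs, a larger and a conservative set that draw on both replicates and 1 pair from each replicate alone. Signals share no scale between lists. The larger set held 465 listed peaks among 9477 candidates, the conservative set 437 among 12529, replicate 1 287 among 18181 and replicate 2 248 among 27101. Peak lists carry no read counts, so the depth is unknown. Nearly all candidates had 1 fixed width, 260 bp in all lists but that of replicate 2, where it was 236 bp, with the summit at the midpoint.

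In the larger set, 11 of the 99 snRNA genes had a listed summit within 500 bp, and 29 more had an unlisted candidate only. The other 59 had no candidate in that list. All 5 spliceosomal families were among the listed genes, with 4 of 13 U1-type, 1 of 19 U2-type, 1 of 5 U4-type, 2 of 12 U5-type and 2 of 24 U6-type genes. None of the 10 SmY genes was listed. The single listed gene outside those families was mir-1831, which lies inside the U1-type gene sup-39 and shares its peak. Measured from the 5′ end alone, 11.1% of snRNA genes had a listed summit within 500 bp, against 0.996% of 19985 protein-coding genes. A candidate, listed or not, lay in that range at 39.4% of snRNA genes and 12.2% of protein-coding genes.

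**Figure D1:**
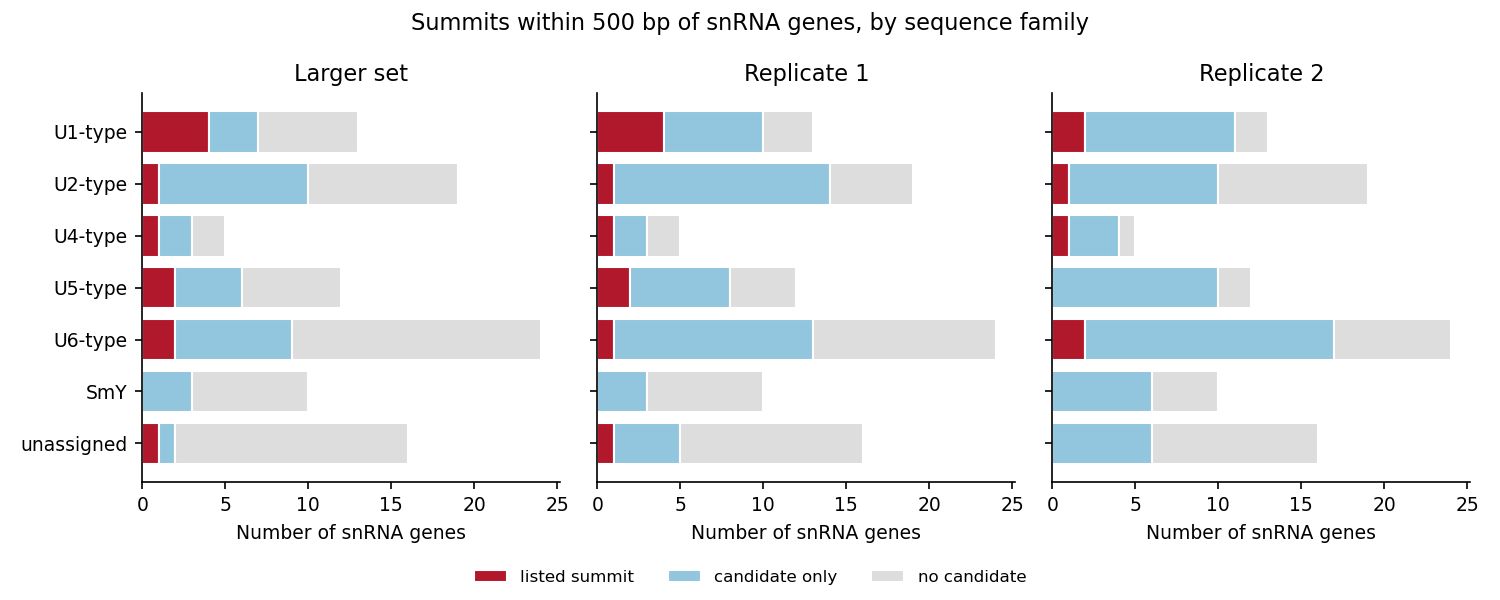
Number of snRNA genes in each sequence family (x axis) with a listed summit within 500 bp, an unlisted candidate only, or no candidate, in the larger set, replicate 1 and replicate 2. U1-type genes have the longest listed segment in the larger set, 4 of 13 genes, and the SmY genes have none in the 3 panels.

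As peaks, 10 of 43 candidates near snRNA genes in the larger set were listed, which is 23.3% (exact binomial 95% interval 11.76% to 38.63%, counting error only), against 4.91% of all candidates in that list. In the conservative set 10 of 58 were listed, 17.2% against 3.49% of all candidates. In replicate 1 the count was 9 of 55, 16.4% against 1.58%, and in replicate 2 it was 6 of 69, 8.7% against 0.915%. Each share lay above that of its whole list. No test was made of this, since the members were chosen with earlier results known and the lists share the same 2 replicates. The conservative set listed the same 11 genes as the larger one.

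The 10 listed peaks at snRNA genes were of middling strength. Their signals in the larger set ran between 88.5 and 157, with a median of 116.9, against a median of 103.2 and a maximum of 681.9 over all listed peaks. The strongest ranked 168th by signal among the 9477 candidates and the weakest 504th. Unlisted candidates near snRNA genes had a median signal of 50.1, against 42 over all unlisted candidates.

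The 2 replicates listed overlapping but unequal sets of genes. Replicate 1 listed 10 snRNA genes and replicate 2 listed 6, and 5 genes were listed in both, which is 50% of the genes in replicate 1 and 83.3% of those in replicate 2. The 5 were sup-6 and T08G5.11 of the U1-type, Y57G11C.35 of the U2-type, T11F9.15 of the U4-type and F54D8.7 (WBGene00195000) of the U6-type. All 11 genes had at least a candidate in both replicates, with summits between 0 and 60 bp apart. Candidates were more widespread: 44 genes had one in both replicates, 12 in replicate 1 only and 20 in replicate 2 only, and 23 had none in any list. They were also frequent at other genes. Measured from the 5′ end alone, 54.5% of snRNA genes and 22.3% of protein-coding genes had a candidate within 500 bp in replicate 1. In replicate 2 the shares were 62.6% and 29.4%.

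**Figure D2:**
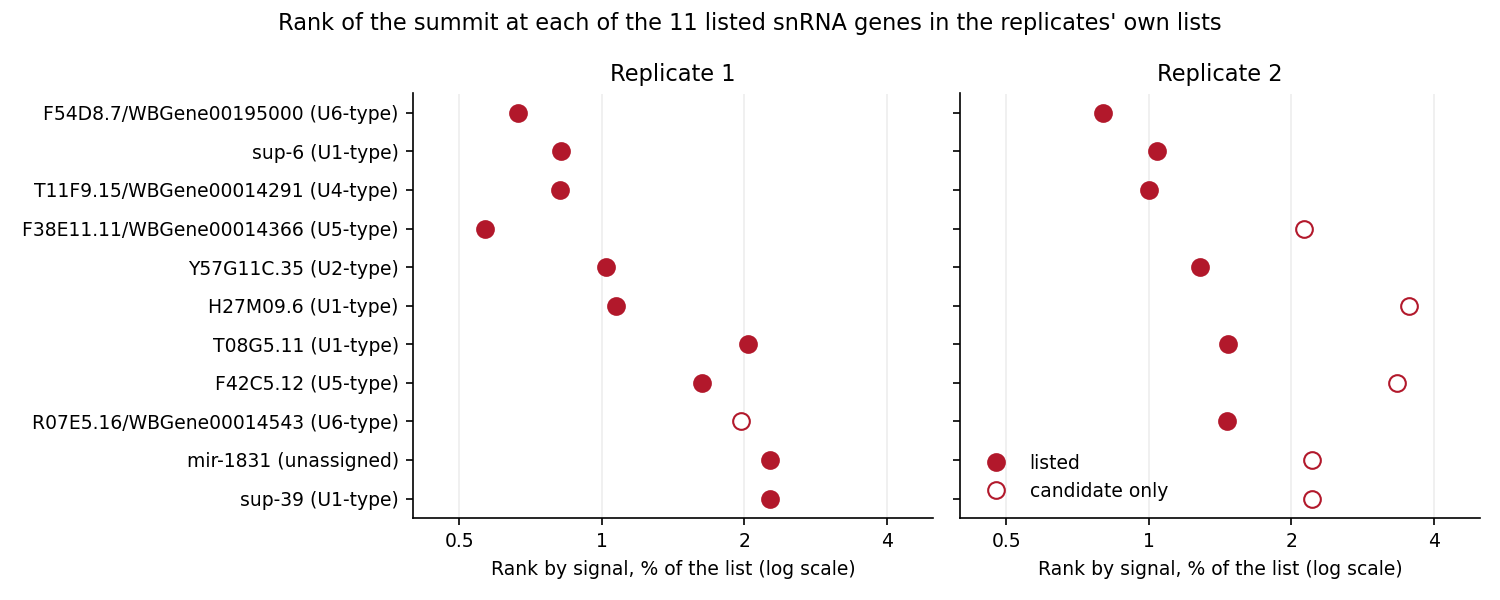
Rank by signal of the peak at each of the 11 listed snRNA genes, as a percentage of the replicate's own candidate list (x axis, log scale, low is strong), for replicate 1 and replicate 2. Filled points are listed and open points are candidates only; 5 genes are filled in both panels, and the genes open in replicate 2 rank between 2.13% and 3.54% there.

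Among the U1-type genes, whose RNA recognises the 5′ splice site, the 4 listed ones lay on 3 chromosomes. The gene sup-6 (WBGene00006315, chrII:12944803-12944967, minus strand, within the span of the coding gene F58G1.7) is known from suppressors of splice-site mutations. Its peak had a signal of 137.2 and an IDR of 7.66e-05 in the larger set, 80.3 in replicate 1 and 57.3 in replicate 2. The summit lay inside the gene, 78 bp past its 5′ end. The peak was within the top 1.04% of candidates in either replicate, 0.82% in replicate 1.

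T08G5.11 (WBGene00014511, chrV:14028471-14028635, minus strand) had a signal of 107.9 in the larger set, 56.8 in replicate 1 and 47 in replicate 2, with the summit 60 bp inside the gene. Both replicates listed it, and placed the summit at the same base. For sup-39 (WBGene00006344, chrII:6968394-6968558, minus strand), also known as a suppressor, the values were 88.5, 54.4 and 38.7. Its summit lay 59 bp upstream, at the first base of the GCGNAACCC motif shown above, and only replicate 1 listed it, with an IDR of 0.085 in replicate 2. H27M09.6 (WBGene00194992) had 109.8 in the larger set, 72 in replicate 1 and 33.6 in replicate 2, where its IDR was 0.457 and it was not listed; its summit was 21 bp upstream.

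The remaining 9 U1-type genes were all on chromosome V except C27H5.11 on chromosome II. Of these 9, 3 had a candidate in the larger set, with signals between 34.1 and 54.2, all below the weakest listed value of 88.5. T27E4.12 and T27E4.22 overlap each other and shared 1 candidate of 54.2.

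The U2-type genes, whose RNA pairs with the branch point, had 1 listed gene of 19 in the larger set, although 10 had a candidate. That share was the lowest of the 5 spliceosomal families in the larger and conservative sets, but U6-type genes had a lower one in replicate 1 (1 of 24) and U5-type genes in replicate 2 (0 of 12). The listed gene was Y57G11C.35 (WBGene00014593, chrIV:14764848-14765034, minus strand, within the span of Y57G11C.5). Its signal was 124.1 in the larger set, 74 in replicate 1 and 50.4 in replicate 2, and both replicates listed it. The summit lay 47 bp upstream of the 5′ end, and its position differed by 2 bp between replicates. At the other 9 U2-type genes with a candidate in the larger set, the strongest one of each gene had a signal between 41.2 and 65.2. The highest belonged to 2 copies of C47F8.9, a sequence found in 7 identical genes, WBGene00014483 with 65.2 and WBGene00014311 with 64.1; their IDR values were 0.65 and 0.264. The first had no candidate in replicate 2, while the second had 36.4 in replicate 1 and 35.4 in replicate 2.

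All 5 U4-type genes, whose RNA escorts U6 into the spliceosome, lay on chromosome V, and the listed one was T11F9.15 (WBGene00014291, chrV:11980118-11980261, plus strand). Its signal was 132.3 in the larger set, 80.4 in replicate 1 and 59.6 in replicate 2, and both replicates listed it, with the summit 30 bp upstream in replicate 1 and 43 bp upstream in replicate 2. An identical copy of the gene, WBGene00014517, had an unlisted candidate with a signal of 54.9 in the larger set. The same listed peak lay 365 bp upstream of a transcription start site of snr-4, which encodes an Sm ring protein, so the list alone cannot assign it to 1 of the genes.

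Of the 12 U5-type genes, whose RNA holds the exon ends, 2 were listed. Replicate 1 listed both and replicate 2 neither. F38E11.11 (WBGene00014366, chrIV:9444642-9444763, plus strand) had a signal of 129.4 in the larger set, 93 in replicate 1 and 39.2 in replicate 2. It ranked in the top 0.567% of replicate 1, the highest rank there among snRNA genes, and in the top 2.13% of replicate 2, with an IDR of 0.0318. Its summit lay 109 bp upstream, farther than that of any other listed snRNA gene. F42C5.12 (WBGene00194997, chrIV:7316732-7316853, plus strand, within the span of F42C5.9 on the other strand) had 101.9, 61.6 and 34, with the summit 22 bp upstream and an IDR of 0.85 in replicate 2. The second copy of the F38E11.11 sequence, WBGene00014367, had an unlisted candidate of 47.7. Candidates were common in replicate 2, at 10 of 12 U5-type genes, and none of these was listed there. That share was not particular to this family. Replicate 2 had a candidate at 11 of 13 U1-type, 4 of 5 U4-type, 17 of 24 U6-type and 10 of 19 U2-type genes, and at 64 of all 99.

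Among the 24 U6-type genes, whose RNA forms the catalytic centre, F54D8.7 (WBGene00195000, chrIII:5080798-5080898, minus strand) had the highest signal of any snRNA gene in the larger set and in replicate 2, and in replicate 1 it came after F38E11.11. It was 157 in the larger set, with an IDR of 2.26e-05, 87.5 in replicate 1 and 70.7 in replicate 2, and both replicates listed it. The summit was 38 bp inside the gene in the larger set, 33 bp in replicate 1 and 93 bp in replicate 2. R07E5.16 (WBGene00014543, chrIII:10989679-10989780, plus strand, within the span of dhc-4) had 101.2, 57.5 and 47.1, with the summit 5 bp inside the gene. Replicate 2 listed it with an IDR of 0.00275, and replicate 1 did not, at an IDR of 0.0362.

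The listed U6-type genes are copies of RNAs that are encoded many times, so the copies can be compared with the RNA held constant. F54D8.7 has 3 identical copies; 1 was listed, and the other 2, WBGene00195002 and WBGene00195001, had unlisted candidates of 55.1 and 51.9. R07E5.16 has 14 identical copies, of which 1 was listed, 4 had an unlisted candidate and 9 had none in the larger set. The 4 candidates had signals of 80.2 (WBGene00235188), 69.1 (WBGene00014266), 63.5 (WBGene00235247) and 51.5 (WBGene00014484). The highest of these, on chromosome V, had an IDR of 0.0314 in the larger set; its signal was 59.6 in replicate 1 and 20.7 in replicate 2, where it ranked at 29% of the list. The 24-base words of both listed genes all occur more than once in the genome, and both listed summits of the larger set lie inside the gene; how reads were placed there was not tested.

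Most SmY genes and most unassigned genes had no candidate in the larger set, which also held for 59 of all 99 snRNA genes. In replicate 2 a candidate lay at 6 of 10 SmY genes and 6 of 16 unassigned genes, against 64 of all 99. Of 10 SmY genes, 3 had a candidate in the larger set, with signals between 42.7 and 58.5, the highest at smy-1 (WBGene00045194, signal 58.5, IDR 0.179). Of the 16 unassigned genes, mir-1831 shared the sup-39 peak and B0213.24 had an unlisted candidate of 36.2. In all 4 lists, no unlisted candidate near an snRNA gene had an IDR of 0.01 or less.

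Listed summits lay close to the 5′ ends. All 10 in the larger set were within 130 bp of the 5′ end of the nearest snRNA gene, 6 upstream and 4 inside the gene, with positions between -109 and 78 bp and a median of -21.5 bp, where negative values are upstream. The 33 unlisted candidates were more scattered, between -254 and 570 bp with a median of 37 bp; 15 were upstream, 8 inside and 10 past the 3′ end, and 21 were within 130 bp. With a peak width of 260 bp, positions in this range do not separate the promoter from the start of the gene. In replicate 2 alone the median of its 6 listed summits was 21 bp, inside the genes, against -25 bp for the 9 of replicate 1, so the sign of the median is not settled.

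**Figure D3:**
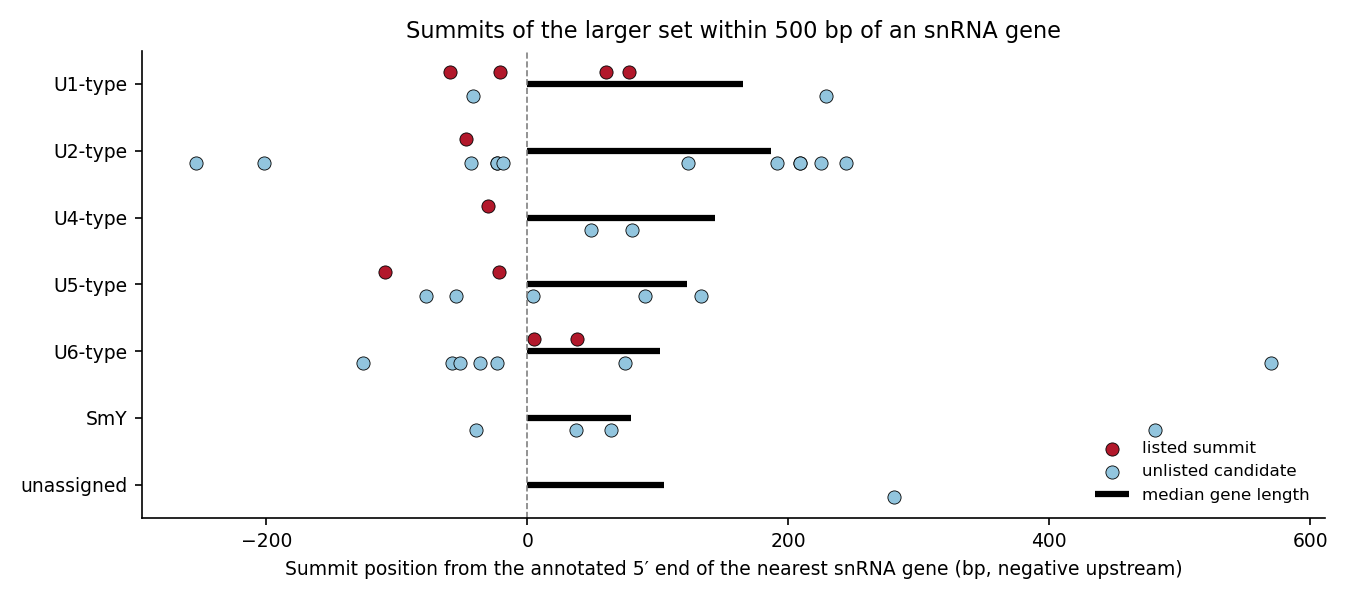
Position of each summit in the larger set within 500 bp of an snRNA gene, relative to the annotated 5′ end of the nearest one (x axis, bp, negative upstream), by family. Listed summits are drawn above each line and unlisted candidates below it, and the black bar is the median gene length; listed summits run between -109 and 78 bp and unlisted ones between -254 and 570 bp.

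The motifs in the upstream stretches were searched on both strands between 250 bp before and 50 bp after the 5′ end. GCGNAACCC was in 36 of the 99 snRNA windows, 36.4%, against 0.300% of 19984 protein-coding windows of the same length, 6.94% of snoRNA windows and 20% of SL RNA windows. On the strand of the gene it was in 9 of 13 U1-type, 11 of 12 U5-type and 8 of 10 SmY genes. The U1-type count takes the copy shared by the overlapping T27E4.12 and T27E4.22 for both genes. The median first base of GCGNAACCC in these families lay at -60, -62 and -61. Only 5 of 24 U6-type genes held it, with a median of -71, and 2 of 5 U4-type genes, with a median of -63. ACGCGCNCC was at -63 in 16 of 19 U2-type genes, and in 17.2% of snRNA windows against 0.58% of protein-coding ones. TATATAA was on the gene's strand in 16 of 24 U6-type genes, with a median first base at -31, and in 23.2% of snRNA windows against 8.44% of protein-coding ones. The general TATAA, which TATATAA also holds, was in 61.6% of snRNA windows and 57.8% of protein-coding ones.

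One of the first 2 motifs was held by 9 of the 11 listed genes, 21 of the 29 with a candidate only and 23 of the 59 with none. The listed genes without either were H27M09.6 and T11F9.15, and mir-1831 shares the motif copy of sup-39. Among the genes with a candidate only, the overlapping U1-type genes T27E4.12 and T27E4.22 also share 1 motif copy. These classes differ in family make-up: the 59 include 14 unassigned genes, of which 1 held a motif. In the same order, U1-type genes had 3 of 4, 3 of 3 and 3 of 6, and U2-type 1 of 1, 9 of 9 and 6 of 9. U4-type genes had 0 of 1, 1 of 2 and 1 of 2, and U5-type 2 of 2, 4 of 4 and 5 of 6. U6-type genes had 2 of 2, 2 of 7 and 1 of 15. The summits did not keep 1 distance from these motifs. Relative to the motif's first base, on the strand of the gene, the summit lay at -46 bp for F38E11.11, 0 for sup-39, 16 for Y57G11C.35, 39 for F42C5.12, 76 for R07E5.16, 109 for F54D8.7, 120 for T08G5.11 and 138 for sup-6, whose motif lies outside its peak. Among the U6-type genes, 4 had GCGNAACCC at -71 together with TATATAA at -31. Of these, 2 were listed and 2 had an unlisted candidate, while of the other 20 none was listed, 5 had a candidate and 15 had none. Within the 14 identical copies of R07E5.16, the listed copy was the one with both motifs at those positions, as its sequence above shows. The copy WBGene00235209 held GCGNAACCC at -71 as well, with the shorter TATAA at -29, where the listed copy also has it, and TATATAA on its own strand at -224. Its upstream sequence was 100% unique, and it had no candidate in any list. These are counts of matches, chosen after the sequences were seen, and whether any factor uses them was not tested.

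Repeated sequence upstream followed the same split only in part. The percentage of 24-base words in the 300 bp upstream that occur once in the genome was 100% at 10 of the 11 listed genes and 78.3% at T08G5.11. The 10 include both sup-39 and mir-1831, which lies inside it and shares nearly all of that upstream sequence. The percentage was 100% at 12 of 29 genes with a candidate only and at 16 of 59 with none. The medians of these 2 classes, 94.9% and 96.8%, did not fall in the order of the split. Below 50% were 0 listed genes, 2 with a candidate only and 12 with none. The 6 copies of R07E5.16 within mam-3 on chromosome IV had between 15.5% and 35.4% and no candidate in the larger set. Within the gene itself, the median percentage of such words was 23.6% at listed genes, where mir-1831 was too short to score. It was 0.0% at genes with a candidate only and 20.0% at those with none. How far repeats limited the placing of reads, and what part that had in the split by motif, was not tested.

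**Figure D4:**
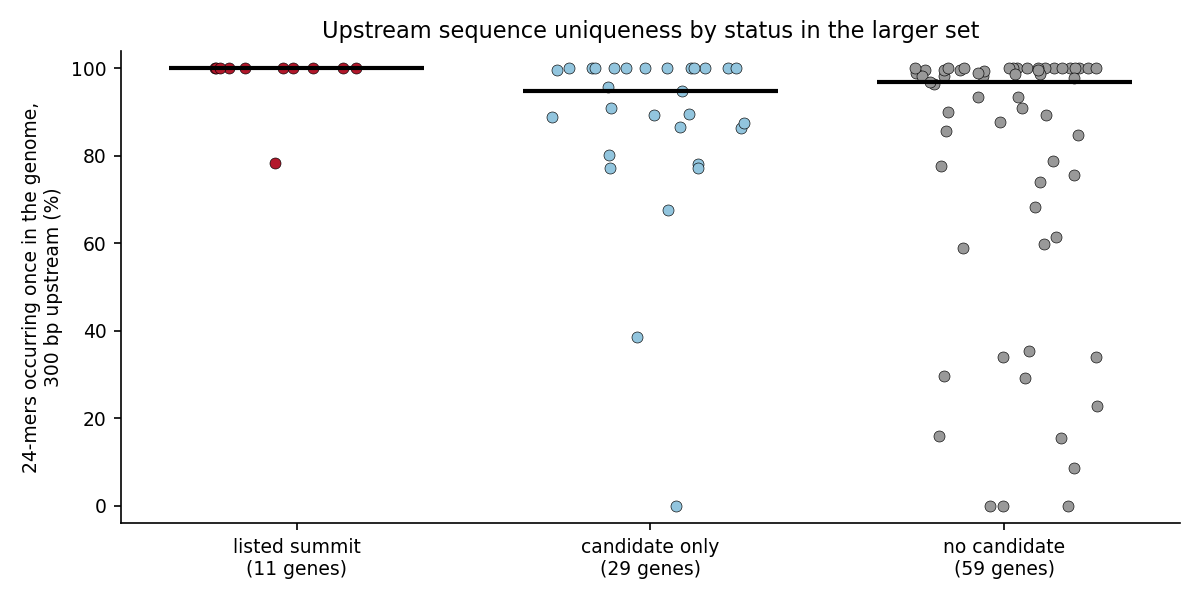
Percentage of 24-base words in the 300 bp upstream of each snRNA gene that occur once in the genome (y axis), by status in the larger set. Each point is a gene, spread sideways at random, and the lines are medians; 10 of the 11 listed genes sit at 100%, and values below 50% are found at 2 genes with a candidate only and 12 with none.

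In the larger set, other short RNA genes had similar or higher shares of listed candidates. Against the 23.3% near snRNA genes, 26.2% of the 428 candidates near tRNA genes were listed (interval 22.06% to 30.61%), 31.1% of 151 near snoRNA genes (23.85% to 39.16%) and 33.3% of 15 near SL RNA genes (11.82% to 61.62%). All 3 intervals overlap that of the snRNA genes, and no difference was tested. Counted as genes, 11.1% of snRNA genes had a listed summit, against 21.0% of 634 tRNA genes, 13.6% of 346 snoRNA genes and 16.7% of 30 SL RNA genes. In replicate 2 the order of candidates turned for tRNA genes, with 8.7% listed near snRNA genes against 6.4% near tRNA genes, and counted as genes the shares were 6.1% and 6.2%. None of the 11 listed snRNA genes had a tRNA, snoRNA or SL RNA gene within 500 bp of its summit; the nearest was 12938 bp away. Coding genes were closer, with a start site within 500 bp of the 5′ end at 4 of the 11. The same held for 4 of 29 genes with a candidate only and 10 of 59 with none. The 4 listed genes were H27M09.6 at 208 bp, F42C5.12 at 371 bp, T11F9.15 at 395 bp and Y57G11C.35 at 402 bp. For these the list alone cannot assign the peak to 1 gene.

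Few genes for the proteins of the pathway were listed. Of 50 chosen names, 47 were in the annotation, and 2 of these, 4.26%, had a listed summit between 500 bp upstream and 100 bp inside a transcription start site, against 0.97% of all protein-coding genes. One was snr-4 (WBGene00004917), through the T11F9.15 peak. The other was snpc-3.4 (WBGene00011367), named for the SNAP complex, with a peak at chrIII:4019883-4020142, a summit 24 bp upstream, a signal of 72.9 and an IDR of 0.00835. A further 10 had a candidate only. Counted with the listed ones, 25.5% of the 47 genes had a candidate, against 10.3% of all protein-coding genes. By group, 1 of 7 Sm ring genes and 1 of 8 genes of the SNAP complex and TATA-binding protein were listed, and 0 of 7 LSm ring, 0 of 14 other snRNP protein and 0 of 11 Integrator genes, the last of which encode the complex that processes snRNA 3′ ends.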

How the data were processed

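Peaks of the 2 biological replicates were analysed from the deposited lists only. Their assembly is ce11, per the labels, and no peak ran past the end of a WBcel235 chromosome. The signal and the IDR score, 125 times the negative log2 of the IDR capped at 1000, are deposited as the authors gave them; the ranked lists also hold the −log10 of the global IDR, capped at 5, as the authors computed it. The summit is deposited as an offset in bp. How reads were aligned and which peak caller and IDR tool were run is not given in the sources used here. Also, the thresholded lists omit some candidates with an IDR of 0.01 or less.

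Genes came from Ensembl release 115 and sequence from the RefSeq WBcel235 genome. A gene was counted where any summit lay within 500 bp of it, so 1 summit can count for several genes. For counts of peaks and summaries of position, each summit was assigned to the nearest snRNA gene. Families used global alignment (match 1, mismatch -1, gap opening -2 and extension -0.5) in Biopython 1.88 with single linkage; intervals are exact binomial (scipy 1.17.1). The scoring was tested on simulated data. There is 1 group, so no test across samples and no p-value is given. Named are every snRNA gene with a listed summit, the 5 others with the highest signal, and pathway genes with a listed summit; other members were named after their values were seen. The members and lists were chosen with earlier results of these data known, and the motifs, stretches and family threshold after the sequences were seen. The gene sequences of some members are not reported here.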

Additional observations from a re-analysis of the deposited data

How the results depend on the processing

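Of 41 alternative values, 37 stayed within 1.5 times the reported count, the interval of the share, or the spread of the median between replicates. The 4 exceptions all came from using replicate 2's own lists. The spread of the median, a standard deviation of 32.5 bp, was taken from the replicates' own medians, which are themselves among the alternatives. It exceeds the size of the reported median, -21.5 bp, so that limit is loose. Leaving out 1 replicate at a time gave between 6 and 10 genes with a listed summit (11 reported), between 56 and 64 with a candidate (40 reported), between 8.7% and 16.36% of candidates listed (23.26% reported) and a median position between -25 and 21 bp (-21.5 bp reported), which reversed in replicate 2. Windows of 200 and 1000 bp, the conservative set, an IDR of 0.001, peak midpoints and peak intervals changed none of these by more; an IDR of 0.001 or less left 9 genes. Chosen after seeing the data were the 5 families alone, with 10 listed genes, and the removal of summits near other short RNA genes, with 11. The 5 genes listed in both replicates remained 5 in number under every alternative run for them. No paired analysis was possible because there is 1 group. Having 2 replicates, fixed peak widths, unknown depth and repeated copies limit these counts.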
